A study of Homo sapiens with 5 samples.

Results

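In COV434 cells given 3-nitropropanoic acid (3-NP), 41 protein-coding genes separated replicate 1 from replicates 2 and 3. They were found among 6130 protein-coding genes that reached 5 FPKM in a 3-NP library, of 17105 protein-coding genes and 30631 genes in all. FPKM is a read count scaled for gene length and library depth. The genes were selected on these measured values: replicates 2 and 3 both stood at least 3 times above replicate 1, or replicate 1 stood at least 3 times above both, after 0.1 was added to each value. In 39 of them (0.636% of the 6130) replicates 2 and 3 were high, and in 2 (0.0326%) replicate 1 was high. The ratios between 3-NP libraries are therefore given as descriptions with no test, and the control libraries, which the selection did not use, are set beside them. Tests of 3-NP against control cells, given below, use the same 3-NP values, so for the 41 genes they are descriptions too.

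The 3-NP group had 3 libraries and the control group had 2. COV434 is a cell line that the labels place in the granulosa cell tumours of the human ovary, and 3-NP is an irreversible inhibitor of succinate dehydrogenase in the mitochondrial respiratory chain. The labels name no genotype change, dose, exposure time or passage, and they do not say whether the libraries of a group came from separate cultures, so the spread between them may be technical. Total RNA was extracted and libraries of messenger RNA were made with a stranded kit.

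The 3 3-NP libraries held about 18892500, 18655000 and 18821500 reads and the 2 control libraries 18760500 and 17830000, as worked out from the steps between FPKM values. Across 11858 genes, log2(FPKM + 1) correlated at r = 0.975 between 3-NP replicates 1 and 2, at 0.968 between 1 and 3 and at 0.982 between 2 and 3, against 0.985 between the controls. Replicate 1 was thus the 3-NP library farthest from the other two by this measure, which is across genes and not across independent replicates. Mitochondrial ribosomal RNA took 1.07%, 1.53% and 1.34% of reads in 3-NP replicates 1, 2 and 3 and 0.656% and 0.752% in the controls, and its part in the split was not tested. Some defining granulosa cell genes were at or near 0 in all 5 libraries, with the FSH receptor FSHR and aromatase CYP19A1 at no more than 0.0753 FPKM, while the steroidogenic regulator NR5A1 stood at 14.1, 11.4 and 13 FPKM in 3-NP cells and 21.9 and 24.9 FPKM in control cells, and the granulosa factor FOXL2 at 2.71, 2.50 and 2.33 FPKM against 5.50 and 6.90 FPKM. Immune markers summed to 0.664, 1.20 and 1.12 FPKM in the 3-NP libraries and 0.627 and 0.659 FPKM in the controls over 13 genes, and endothelial markers to 4.52, 4.32 and 2.83 FPKM against 7.33 and 5.75 FPKM over 10 genes. The epithelial adhesion genes EPCAM and CDH1 reached at most 0.443 and 0.209 FPKM in any library. Over 16 epithelial markers, 10 of them under 1 FPKM in every library, the sum was 1061, 1172 and 1189 FPKM in the 3-NP libraries and 1185 and 1520 FPKM in the controls. Most of that sum was KRT14, at 994, 1004 and 1001 FPKM against 682 and 869 FPKM. Outside the 41, 4 epithelial markers had a mean of at least 1 FPKM over the 5 libraries. All 4 had replicates 2 and 3 above replicate 1, beside 38.4% of 10203 protein-coding genes with such a mean. Their median log2 ratios were 0.55 and 0.91, with KRT14 at 0.01 in both. Over 12 fibroblast and stromal markers the sum was 247, 303 and 324 FPKM against 929 and 975 FPKM. KRT7 and COL3A1 of the 41 genes are in these lists, and the part of other cell types in the split was not tested.

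Several of the 41 genes belong to well known programmes. Cyclin-dependent kinase inhibitors hold cells before DNA synthesis, whereas cyclin B, its kinase CDK1 and the anaphase-promoting complex with its activator CDC20 drive entry into and exit from mitosis. Interleukin 1, prostaglandin E and interferon-induced membrane proteins act in inflammation and antiviral defence, and in the ovary interleukin 1 and prostaglandin E take part in ovulation. Stress of the endoplasmic reticulum and shortage of sterols each switch on their own target genes, among them the chaperones of that compartment, the transcription factor DDIT3 and the sterol sensor INSIG1.

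**Figure D1:**
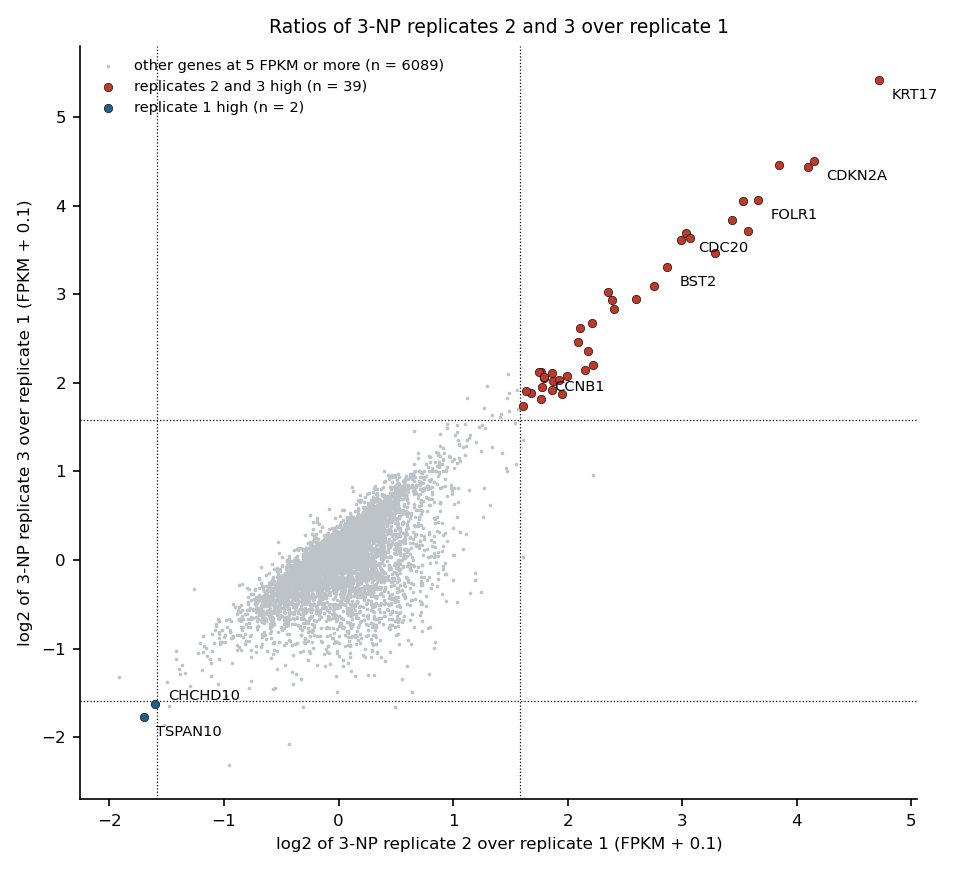
Log2 ratio of 3-NP replicate 2 over replicate 1 (x axis) and of replicate 3 over replicate 1 (y axis), from FPKM + 0.1, for 6130 protein-coding genes at 5 FPKM or more in a 3-NP library; dotted lines mark a ratio of 3. The 39 genes with replicates 2 and 3 high lie in the upper right corner, reaching 4.72 and 5.42 for KRT17, and the 2 genes with replicate 1 high lie in the lower left corner.

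Over all 6130 genes the split was far from general. The log2 ratio had a median of 0.03 for replicate 2 over replicate 1 and 0.02 for replicate 3 over replicate 1, and the 5th and 95th percentiles were -0.57 and 0.68 for the first and -0.71 and 0.73 for the second. Among the 39 genes, the smaller of the 2 ratios was at least 5 in 18 and at least 10 in 8, which were KRT17, CDKN2A, SLPI, UBB, FOLR1, CDKN2B, ASS1 and S100P. Replicate 3 was above replicate 2 in 36 of the 39, and control replicate 2 was above control replicate 1 in 32 of the 39. Neither count was made over all 6130 genes, so nothing is read from them. Over the 6130 genes, the median log2 ratio of control replicate 2 over 1 changed with gene length. It was 0.41 under 1000 bases, 0.17 at 2000 to 4000 bases and -0.21 at 8000 or more. Controls differed by at least 3-fold in 5 of 6373 protein-coding genes at 5 FPKM or more in a control (0.0785%), and in none of the 41, whose largest control difference was 1.75-fold in BST2.

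The threshold cut through a thinning tail rather than a gap. Just inside it with replicates 2 and 3 high were PDIA4 (smaller ratio 3.05), TCIM (3.11) and IL32 (3.20), and just outside were the chaperone HSPA5 (2.96), the keratin KRT80 (2.96) and the metallothionein MT1X (2.91). HSPA5 had 385, 1140 and 1257 FPKM in 3-NP replicates 1, 2 and 3 against 222 and 218 FPKM in the controls. In the other direction CHCHD10 (3.04) and TSPAN10 (3.24) were inside, and the desaturase SCD (just under 3), the cytokine IL6 (2.88) and the growth factor CSF3 (2.79) were outside.

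The widest ratio was that of a keratin. KRT17 (ENSG00000128422, chromosome 17, positions 41619441 to 41624842, GRCh38), an intermediate filament keratin of basal and wounded epithelium, had 13.9, 369 and 597 FPKM in 3-NP replicates 1, 2 and 3 and 45.0 and 58.3 FPKM in the controls. Replicate 1 was thus below both controls and replicates 2 and 3 far above them, at 7.13 and 11.5 times the control mean; here and below, folds over or under the control mean are of FPKM + 0.1. Behind these values stood 821, 21542 and 35162 reads in the 3-NP libraries, and the smaller read ratio, 26.6, had a 95% interval of 24.8 to 28.5 (exact binomial, counting error only). KRT17 has close relatives and pseudogenes, and how reads with several positions were counted is not given in the sources used here. Its near neighbour in sequence, KRT14, did not split at all, with 994, 1004 and 1001 FPKM in 3-NP cells and 682 and 869 FPKM in control cells.

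The simple-epithelial keratin KRT7 had 17.5, 78.0 and 77.8 FPKM in 3-NP cells and 101 and 168 FPKM in control cells, so that all 3 3-NP libraries lay below both controls and replicate 1 lay lowest. KRT8, KRT80 and KRT81 leaned the same way without passing the threshold, with 229, 547 and 658 FPKM against 452 and 582 FPKM for KRT81. Outside the 41, 8 intermediate filament genes (keratins and VIM) had a mean of at least 1 FPKM, with median log2 ratios of 0.52 and 0.65. Of these, 7 had replicates 2 and 3 both above replicate 1, beside 38.4% of 10203 protein-coding genes with such a mean. The 7 included KRT14, at a log2 ratio of 0.01 for each replicate, and VIM, at 0.10 and 0.23.

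FOLR1 (ENSG00000110195), the folate receptor of the surface of ovarian and other epithelial tumours, had 9.91, 126 and 166 FPKM in 3-NP cells and 31.0 and 43.9 FPKM in control cells. Its folate-carrier partners SLC19A1 and SLC46A1 did not follow it, at 0.572 to 1.03 FPKM over the 3-NP libraries. MSLN, which encodes the surface protein mesothelin, had 1.47, 7.87 and 12.6 FPKM against 3.92 and 3.72 FPKM in control cells. SLPI, a secreted inhibitor of neutrophil elastase, had 0.355, 7.74 and 9.80 FPKM against 0.716 and 1.13 FPKM. The lowest SLPI value rested on 4 reads, and its read ratio of 21.8 had a wide interval of 8.20 to 81.7. In FOLR1, MSLN and SLPI alike the controls lay between the low and the high 3-NP libraries.

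Further genes of epithelial products were S100P, SFN, LCE1F and CYSRT1, with the controls between in all but LCE1F, where they lay below all 3 3-NP libraries. S100P, a calcium-binding protein of placenta and carcinomas, had 1.24, 14.3 and 19.2 FPKM in 3-NP cells and 2.25 and 2.45 FPKM in control cells, while the other 7 S100 genes listed, among them S100A6 at 1027 to 1735 FPKM, stayed under the threshold. SFN, the epithelial 14-3-3 protein, had 0.963, 4.43 and 5.75 FPKM against 2.06 and 3.48 FPKM, and the other 6 14-3-3 genes did not split. LCE1F, a protein of the cornified envelope of skin, had 1.93, 7.96 and 8.48 FPKM against 0.597 and 0.314 FPKM, from as few as 13 reads in 3-NP cells and 4 and 2 reads in control cells. CYSRT1 had 1.10, 11.7 and 13.2 FPKM against 3.25 and 3.37 FPKM. Among the S100 and 14-3-3 genes listed, then, a single gene stood apart in each family.

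Among the 41 were 3 cyclin-dependent kinase inhibitors. CDKN2A (ENSG00000147889, chromosome 9, positions 21967753 to 21995301), which blocks the kinases CDK4 and CDK6 and, from a second start, the p53 ligase MDM2, had 0.673, 13.7 and 17.4 FPKM in 3-NP replicates 1, 2 and 3 and 4.64 and 6.41 FPKM in the controls. CDKN2B, which blocks the same kinases and lies 7.60 kb away with no protein-coding gene between them, had 0.770, 10.2 and 11.3 FPKM against 1.97 and 1.85 FPKM. In both, replicate 1 was below the controls, by 7.28 and 2.31 times on FPKM + 0.1, and replicates 2 and 3 were above them. MTAP, the next listed gene of this locus, was low but leaned the same way, at 0.00362, 0.348 and 0.429 FPKM in 3-NP cells and 0.150 and 0.130 FPKM in control cells. Its replicate 1 value was far under the 0.0794 FPKM that 3 reads on a 2 kb gene make in that library. The size of its ratio therefore cannot be read.

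CDKN1C, an inhibitor of the other family that is expressed from the maternal copy, had 1.35, 7.50 and 10.9 FPKM in 3-NP cells and 0.557 and 0.694 FPKM in control cells, so the controls lay below all 3 3-NP libraries. The most abundant inhibitor, CDKN1A, did not split, at 1262, 1341 and 1452 FPKM in 3-NP cells and 789 and 854 FPKM in control cells. CDKN2D, at 31.8, 33.7 and 38.3 FPKM against 6.63 and 8.06 FPKM, did not split either.

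The promoters of the 2 neighbours are shown because the genes moved together; each is read on the minus strand, from 250 bases before to 50 after a RefSeq start (GRCh38.p14), and capitals mark GGGCGG, the box bound by SP1, on either strand. The CDKN2A window is chr9:21974808-21975107, 1 of 2 starts listed, and the CDKN2B window is chr9:22009256-22009555.
CDKN2A: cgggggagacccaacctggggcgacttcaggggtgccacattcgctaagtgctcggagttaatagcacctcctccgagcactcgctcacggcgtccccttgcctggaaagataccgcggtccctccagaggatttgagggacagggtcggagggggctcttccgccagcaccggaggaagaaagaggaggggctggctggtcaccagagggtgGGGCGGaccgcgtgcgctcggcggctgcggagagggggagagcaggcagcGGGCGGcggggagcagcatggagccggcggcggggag
CDKN2B: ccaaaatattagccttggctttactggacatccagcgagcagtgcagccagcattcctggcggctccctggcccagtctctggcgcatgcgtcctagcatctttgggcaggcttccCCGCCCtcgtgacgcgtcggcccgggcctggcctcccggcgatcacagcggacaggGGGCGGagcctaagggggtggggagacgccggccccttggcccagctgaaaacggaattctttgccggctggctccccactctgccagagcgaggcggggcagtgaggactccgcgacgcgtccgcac
Each printed window held 2 such boxes, and the window of the other CDKN2A start (chr9:21995275-21995574) held none. A gene was counted when any of its listed windows held the box. By this count 21 of the 29 genes with replicates 2 and 3 high that were in the promoter table held it (72.4%), against 80.8% of the eligible genes. Its share was thus not above that of the eligible genes. Of all promoters of the same length, counted window by window and so in another unit, 45.0% held it.

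Of 36 mitosis genes listed, 4 were among the 41. CDC20 (ENSG00000117399), the activator of the anaphase-promoting complex, had 1.43, 12.4 and 19.6 FPKM in 3-NP cells and 16.9 and 21 FPKM in control cells. UBE2C, the ubiquitin-conjugating enzyme of the same complex, had 1.61, 7.84 and 7.72 FPKM against 17.5 and 20.9 FPKM. CDK1, the mitotic kinase, had 2.22, 8.86 and 8.38 FPKM against 7.53 and 7.97 FPKM. In replicates 2 and 3 the levels of CDC20 and CDK1 were close to those of the controls, whereas UBE2C was lower in all 3 3-NP libraries than in either control. CCNB1, cyclin B1, had 1.26, 4.55 and 5.81 FPKM in 3-NP cells and 19.4 and 21.4 FPKM in control cells and was called lower in 3-NP cells (log2 fold change -2.28 ± 0.42 SE, limma adjusted p = 0.00571). MYBL2, a transcription factor that turns on mitotic genes, had 1.37, 6.70 and 9.29 FPKM against 8.74 and 10.5 FPKM.

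The other mitosis genes leaned the same way. Leaving out CCNB1, CDK1, CDC20 and UBE2C, 29 had a mean of at least 1 FPKM over the 5 libraries, and 28 of these had replicates 2 and 3 both above replicate 1, with median log2 ratios of 1.34 and 1.29. Replicates 2 and 3 were both above replicate 1 in 38.4% of 10203 protein-coding genes with such a mean, whose median log2 ratio of replicate 2 over replicate 1 was 0.05. Summed over all 36 listed, levels were 47.1, 137 and 143 FPKM in 3-NP replicates 1, 2 and 3 and 260 and 264 FPKM in the controls, so the sum in replicate 1 was the lowest of the 5. The kinases AURKB (0.165, 2.08 and 3.18 FPKM against 5.83 and 6.70 FPKM) and NEK2 (0.274, 3.74 and 3.40 FPKM against 3.64 and 3.42 FPKM) had ratios above 3 but stayed below the level required. Limma called 25 of the 34 mitosis genes tested lower and none higher in 3-NP cells, beside 25.2% lower and 15.5% higher of all 11858 genes tested. In bulk RNA, fewer cells in mitosis and less of these transcripts per cell cannot be told apart. DNA replication genes leaned likewise, 26 of 30 with replicates 2 and 3 both above replicate 1 and medians of 0.66 and 0.81, though none was among the 41.

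The promoters of 3 mitosis genes are shown with CCAAT, the box bound by NF-Y, in capitals on either strand (ATTGG on the printed strand where reversed). The windows are chr5:69166900-69167199 for CCNB1, chr1:43358731-43359030 for CDC20 and chr10:60778228-60778527, the second of 2 listed starts, for CDK1, all on the plus strand of GRCh38.p14 and from RefSeq.
CCNB1: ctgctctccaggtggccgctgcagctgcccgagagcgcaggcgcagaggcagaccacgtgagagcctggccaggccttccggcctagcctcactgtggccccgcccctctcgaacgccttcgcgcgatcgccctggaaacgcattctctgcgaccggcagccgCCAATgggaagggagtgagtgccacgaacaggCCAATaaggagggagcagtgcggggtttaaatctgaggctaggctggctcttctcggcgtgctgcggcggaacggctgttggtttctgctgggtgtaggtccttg
CDC20: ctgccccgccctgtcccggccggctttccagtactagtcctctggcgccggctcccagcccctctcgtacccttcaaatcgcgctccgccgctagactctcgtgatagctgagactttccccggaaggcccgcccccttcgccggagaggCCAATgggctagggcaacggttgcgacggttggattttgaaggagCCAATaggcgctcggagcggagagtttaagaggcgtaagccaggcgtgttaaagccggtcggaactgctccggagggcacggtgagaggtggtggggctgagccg
CDK1: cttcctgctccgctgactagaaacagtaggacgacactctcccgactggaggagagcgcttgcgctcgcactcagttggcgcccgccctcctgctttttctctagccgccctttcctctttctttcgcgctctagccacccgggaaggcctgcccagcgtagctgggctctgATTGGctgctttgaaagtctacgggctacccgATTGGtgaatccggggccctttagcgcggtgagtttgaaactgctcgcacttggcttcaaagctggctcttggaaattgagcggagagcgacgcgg
Each window held 2 boxes. Over the 29 genes in the promoter table, 16 held at least 1 (55.2%), against 43.9% of the eligible genes, and the MYBL2 window held none. Over all promoters, counted window by window, the share was 34.6%. A pattern for AP-1, TGANTCA, was in 6 of the 29 (20.7%), namely CYSRT1, IL1A, SFN, TFPI2, DDIT3 and IL11, against 6.66% of the eligible genes. Over all promoters, again counted window by window, it was in 7.71%. These are matches of letters, not binding sites. The promoter table matched 31 of the 41 genes; KRT17, SLPI, FOLR1, WISP2, CDKN1C, MSLN, UBE2C, COL3A1, KRT7 and TCIM were not matched.

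**Figure D2:**
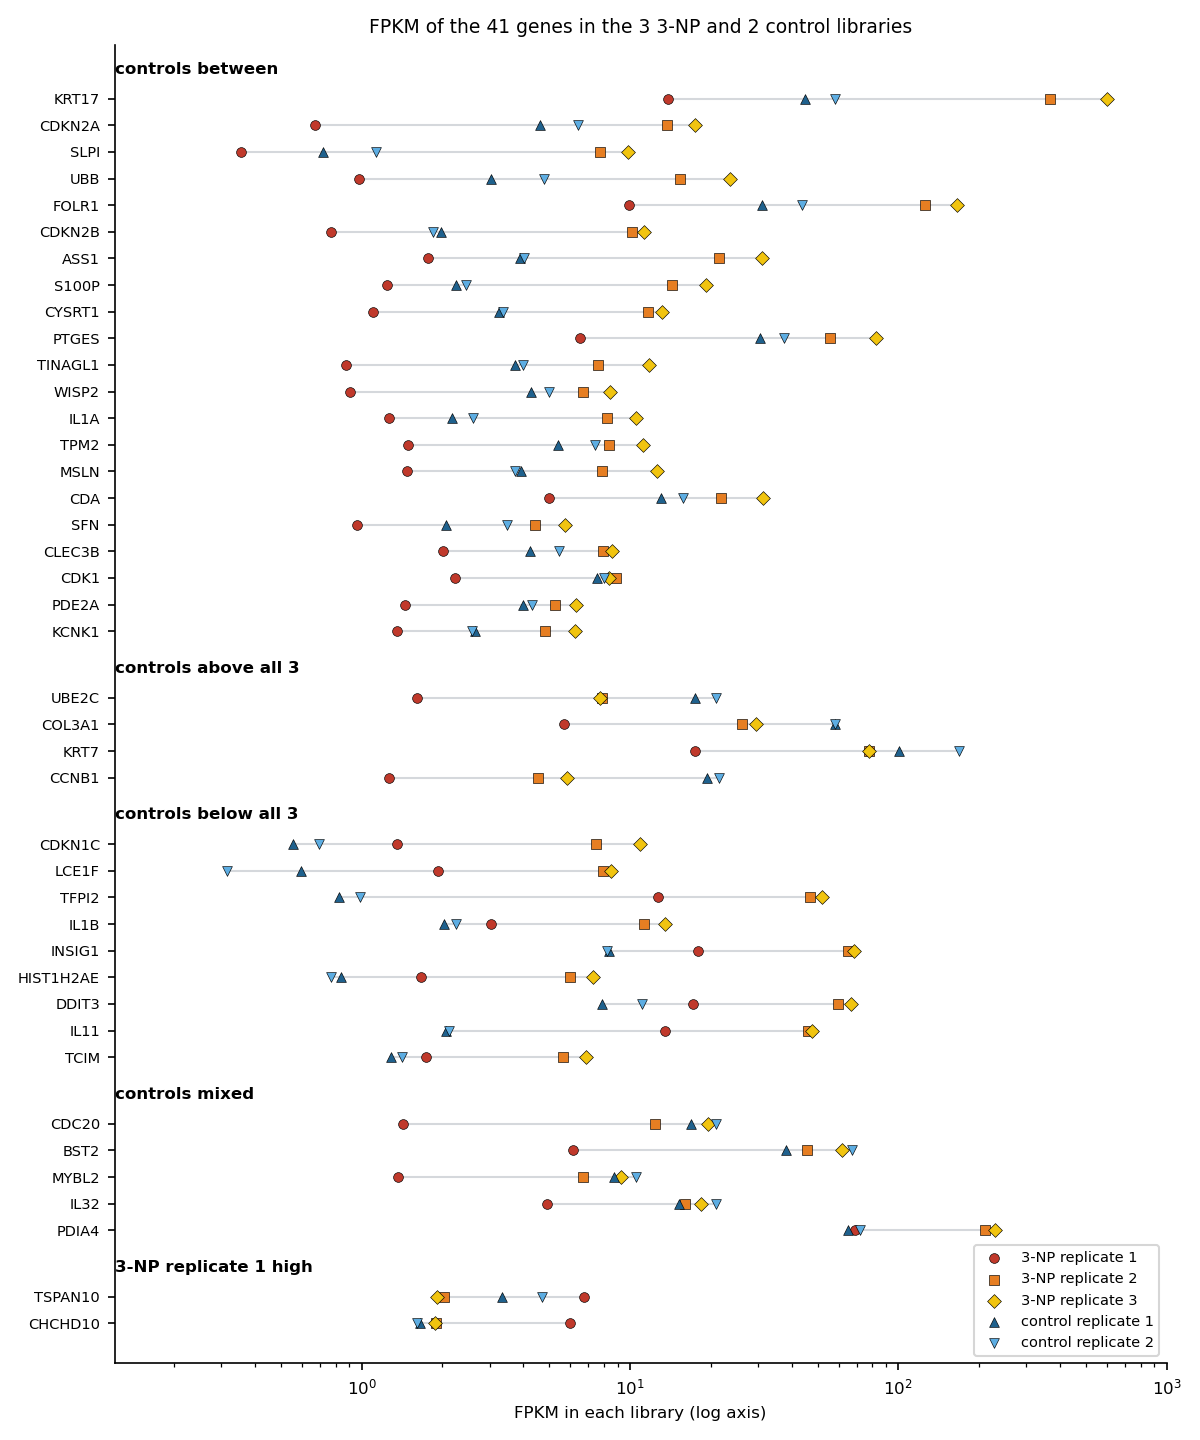
FPKM (log axis) of the 41 genes in 3-NP replicates 1, 2 and 3 and control replicates 1 and 2, 1 row per gene, grouped by where the controls lie among the 3-NP libraries; grey lines join the lowest and highest library. In 21 genes the controls (triangles) lie between 3-NP replicate 1 (circles) and replicates 2 and 3 (squares and diamonds).

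Cytokines and their partners split in part. IL1A and IL1B, the interleukin 1 genes, lie 45.2 kb apart on chromosome 2 with no protein-coding gene between them. IL1A had 1.27, 8.23 and 10.5 FPKM in 3-NP cells and 2.18 and 2.61 FPKM in control cells. IL1B had 3.04, 11.3 and 13.5 FPKM against 2.03 and 2.25 FPKM and rose in 3-NP cells (log2 fold change 1.52 ± 0.50 SE, limma adjusted p = 0.0445). For IL1A the controls thus lay between the 3-NP libraries, and for IL1B below all 3. IL11, a cytokine of the interleukin 6 family, had 13.5, 46.0 and 47.8 FPKM against 2.06 and 2.12 FPKM and was called higher in 3-NP cells (log2 fold change 3.38 ± 0.49 SE, limma adjusted p = 0.00242). IL32 had 4.92, 16 and 18.4 FPKM against 15.2 and 20.9 FPKM, so that only replicate 1 lay apart from the controls.

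Most other inflammatory genes stayed under the ratio of 3, and some ran the other way. IL6 had 30.2, 10.4 and 8.26 FPKM in 3-NP cells and 49.4 and 49.8 FPKM in control cells, and the chemokine CXCL1 had 104, 36.6 and 40.1 FPKM against 97.0 and 93.6 FPKM. The chemokine CXCL8 had 1360, 1831 and 2018 FPKM against 572 and 534 FPKM. IL24, a further cytokine, had ratios above 3 but stayed under the level required, at 0.589, 2.57 and 2.76 FPKM against 0.269 and 0.227 FPKM. Of 21 inflammatory genes outside the 41 with a mean of at least 1 FPKM, 7 had replicates 2 and 3 both above replicate 1 and 10 had both below, with medians of -0.22 and 0.06. The shares over 10203 protein-coding genes with such a mean were 38.4% and 33.5%. PTGES, the inducible prostaglandin E synthase, had 6.51, 55.5 and 82.5 FPKM in 3-NP cells and 30.5 and 37.6 FPKM in control cells, while the synthases PTGES2 and PTGES3 and the cyclooxygenase PTGS2 did not split.

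BST2, the interferon-induced membrane protein tetherin, had 6.15, 45.6 and 61.7 FPKM in 3-NP cells and 38.2 and 67.1 FPKM in control cells. Replicates 2 and 3 overlapped the controls and replicate 1 lay far below, at 8.44 times less than the control mean. Of 30 interferon-stimulated genes listed it was the single one among the 41. Of the 25 others with a mean of at least 1 FPKM, 19 had replicates 2 and 3 both above replicate 1, with medians of 0.70 and 0.94, beside 38.4% of 10203 protein-coding genes with such a mean. The sum over all 30 was 518, 1028 and 1160 FPKM in 3-NP replicates 1, 2 and 3 and 1294 and 2018 FPKM in the controls. The antiviral gene IFI6, among the most abundant of them, had 110, 310 and 353 FPKM against 369 and 661 FPKM. Limma called 15 of the 27 tested lower and 1 higher in 3-NP cells, beside 25.2% and 15.5% of all genes tested.

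Genes of stress in the endoplasmic reticulum and of sterol sensing were represented by DDIT3, INSIG1 and PDIA4. DDIT3, the transcription factor CHOP, had 17.2, 59.4 and 66.9 FPKM in 3-NP cells and 7.88 and 11.1 FPKM in control cells and was called higher (log2 fold change 2.02 ± 0.53 SE, limma adjusted p = 0.0202). INSIG1, which retains the sterol regulator SCAP in the endoplasmic reticulum, had 17.9, 65.1 and 68.1 FPKM against 8.37 and 8.23 FPKM and was called higher (log2 fold change 2.25 ± 0.52 SE, limma adjusted p = 0.0130). PDIA4, a disulfide isomerase of that compartment, had 68.7, 210 and 230 FPKM against 65.2 and 71.7 FPKM. Replicate 1 was at the control level for PDIA4 and above it for DDIT3 and INSIG1.

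Their relatives moved less. Of the 19 listed endoplasmic reticulum chaperones other than PDIA4, 14 had replicates 2 and 3 both above replicate 1 and 1 had both below, with medians of 0.37 and 0.39, and HSPA5, HERPUD1 and HSP90B1 leaned most. HERPUD1 had 17.8, 41.9 and 50.8 FPKM in 3-NP cells and 15.7 and 16.7 FPKM in control cells. Of 24 integrated stress response genes other than DDIT3 with a mean of at least 1 FPKM, 16 had both above and 5 both below, with medians of 0.42 and 0.50. ATF4, which lies upstream of DDIT3 in that response, had 74.1, 144 and 169 FPKM in 3-NP cells and 142 and 167 FPKM in control cells. Cholesterol synthesis genes other than INSIG1 went both ways, 8 above and 11 below of 24, and INSIG2, SCAP and SREBF2 did not split. Of 10203 protein-coding genes with a mean of at least 1 FPKM, 38.4% had both above and 33.5% both below.

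**Figure D3:**
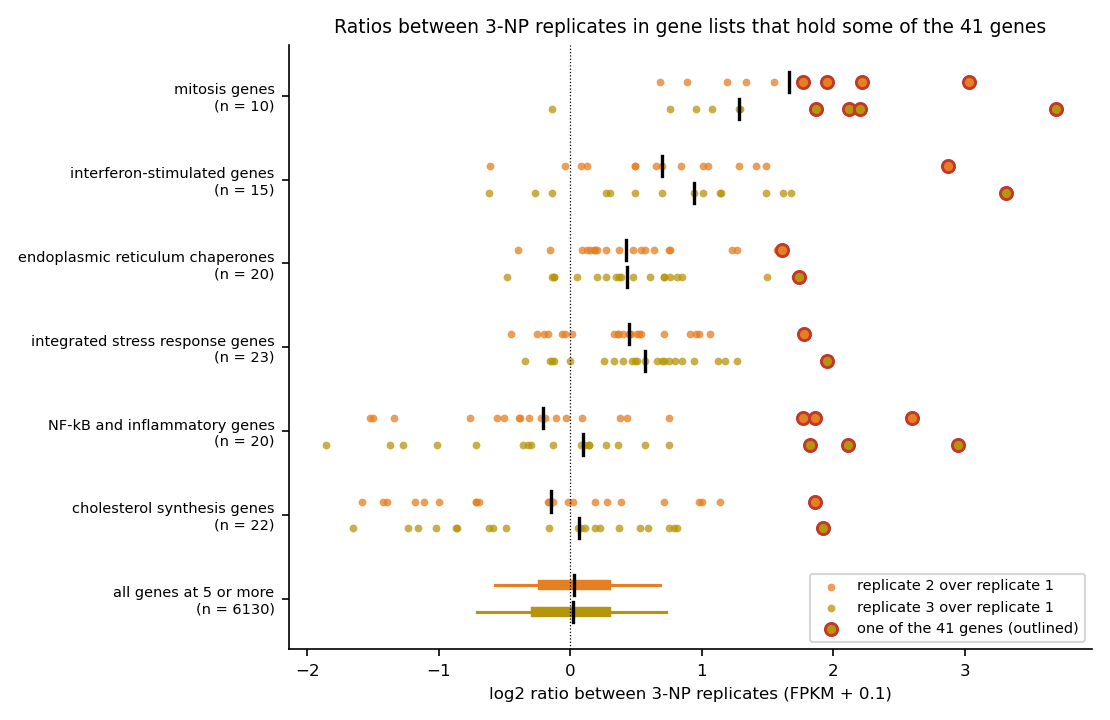
Log2 ratio of 3-NP replicate 2 (orange) and replicate 3 (ochre) over replicate 1, from FPKM + 0.1, for the genes at 5 FPKM or more in a 3-NP library in 6 gene lists; black bars are medians, outlined points are among the 41 genes, and the bottom row gives the 5th to 95th percentiles (thin), quartiles (thick) and median of all 6130 genes. The 10 mitosis genes shown have medians of 1.66 and 1.29, but 4 of them are among the 41 and were selected on these ratios. The 29 other mitosis genes with a mean of at least 1 FPKM had medians of 1.34 and 1.29. All 6130 genes have medians of 0.03 and 0.02. The inflammatory and cholesterol synthesis genes spread to both sides of 0.

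Protease inhibitors, matrix, enzymes and single genes made up the rest. TFPI2, a secreted serine protease inhibitor, had 12.7, 46.7 and 52.0 FPKM in 3-NP cells and 0.821 and 0.989 FPKM in control cells, so replicate 1 alone was 12.7 times the control mean and replicates 2 and 3 were 46.6 and 51.8 times it (FPKM + 0.1). It was called higher in 3-NP cells (log2 fold change 4.10 ± 0.53 SE, limma adjusted p = 0.00165), a description because the selection used the same 3-NP values. COL3A1, a fibrillar collagen chain, had 5.66, 26.1 and 29.6 FPKM against 58.0 and 57.9 FPKM, lower in every 3-NP library than in either control but not past the threshold (limma adjusted p = 0.0522). ASS1, the argininosuccinate synthase of arginine synthesis, had 1.77, 21.5 and 31.0 FPKM against 3.88 and 4.03 FPKM, while the next enzyme of that path, ASL, had 7.82, 5.76 and 6.33 FPKM against 9.05 and 9.63 FPKM. UBB, a polyubiquitin gene, had 0.980, 15.3 and 23.6 FPKM against 3.03 and 4.77 FPKM. How reads with several positions were assigned bears on UBB too, since ubiquitin sequence is repeated within it and in pseudogenes.

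CDA, cytidine deaminase, had 5, 21.9 and 31.2 FPKM in 3-NP cells and 13.1 and 15.7 FPKM in control cells. TPM2, a tropomyosin of actin filaments, had 1.49, 8.32 and 11.2 FPKM against 5.40 and 7.44 FPKM, and the other 3 tropomyosins did not split. The matricellular gene WISP2 (CCN5) had 0.904, 6.66 and 8.43 FPKM against 4.28 and 5 FPKM. In CDA, TPM2 and WISP2 the controls lay between replicate 1 and the others. The basement membrane gene TINAGL1, the plasminogen-binding CLEC3B, the phosphodiesterase PDE2A and the potassium channel KCNK1 likewise had the controls between, with smaller ratios of 7.94, 3.79, 3.45 and 3.37. HIST1H2AE (H2AC8), a replication-dependent histone gene with near-identical copies, had 1.66, 6 and 7.30 FPKM against 0.838 and 0.771 FPKM, from 16, 57 and 70 reads in 3-NP cells and 8 and 7 reads in control cells. TCIM had 1.74, 5.64 and 6.85 FPKM against 1.29 and 1.42 FPKM.

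The 2 genes with replicate 1 high were low in level and close to the threshold. TSPAN10, a tetraspanin, had 6.77, 2.02 and 1.91 FPKM in 3-NP cells and 3.34 and 4.71 FPKM in control cells, so the controls lay between. CHCHD10, a protein of the mitochondrial intermembrane space, had 5.96, 1.89 and 1.87 FPKM against 1.65 and 1.61 FPKM, so replicates 2 and 3 were near the controls and replicate 1 was 3.51 times their mean (FPKM + 0.1). Its relatives CHCHD2, at 434, 453 and 500 FPKM in 3-NP cells, and CHCHD3 did not split. Both genes overlap others on the opposite strand, as do 37.2% of the 6130. So do 6 of the 39 (15.4%), namely CDKN2A, UBB, KRT7, TFPI2, PDE2A and DDIT3. The strand setting of the counting is not given in the sources used here.

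Set against the controls, the 39 genes with replicates 2 and 3 high fell into 4 arrangements. In 21 the controls lay between replicate 1 and both others, in 9 they lay below all 3 (CDKN1C, LCE1F, TFPI2, IL1B, INSIG1, HIST1H2AE, DDIT3, IL11 and TCIM), in 4 above all 3 (UBE2C, COL3A1, KRT7 and CCNB1), and in 5 they were mixed (CDC20, BST2, MYBL2, IL32 and PDIA4). Over all 6130 genes both controls lay between replicate 1 and the others in 302 (4.93%) and below all 3 in 1900 (31.0%). They lay above all 3 in 1856 (30.3%) and were mixed in 2072 (33.8%). A gap of at least 3-fold leaves more room for controls to lie between, and nothing is read from the differences. On log2(FPKM + 0.1) the control mean was nearer to replicate 1 than to the closer of replicates 2 and 3 in 19 of the 41. That count was not made over all 6130 genes. The medians over the 39 genes were 1.66, 11.3 and 13.2 FPKM in 3-NP replicates 1, 2 and 3 and 4.25 and 5 FPKM in the controls.

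The comparison of 3-NP with control cells, over all 5 libraries, asked which genes differed between the groups. Limma called 1842 of 11858 genes higher (15.5%) and 2991 lower (25.2%) in 3-NP cells at an adjusted p of 0.05. For the 41 genes the test shares its 3-NP values with the selection, so their calls and p-values are descriptions only. Of the 41 genes 8 were called higher (CDKN1C, LCE1F, TFPI2, IL1B, INSIG1, HIST1H2AE, DDIT3 and IL11), each above both controls in 3 of 3 3-NP libraries, and 2 were called lower (UBE2C and CCNB1). The other 31 were not called, and a gene chosen for a wide spread among 3-NP libraries has a large standard error in this test: KRT17, at 327 ± 294 FPKM in 3-NP cells (SD, n = 3) and 51.6 ± 9.43 FPKM in control cells (SD, n = 2), had a log2 fold change of 1.51 ± 1.39 SE and a limma adjusted p of 0.413. Without 3-NP replicate 1, 28 of the 41 were called higher and 5 lower (2147 and 3107 of 11677 genes tested), a gain that the choice of genes by that library's distance fixes in advance and from which nothing is read. Without 3-NP replicate 2 the counts were 5 and 3 (1443 and 2617 of 11550), and without 3-NP replicate 3 they were 8 and 6 (1709 and 2780 of 11620). Without control replicate 1, or without control replicate 2, 2 were called higher (IL11 and TFPI2) and 1 lower (CCNB1), while calls over all genes also fell, to 752 and 1062 of 11229 and to 909 and 1179 of 11276.

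Features of the genes were set beside those of the 6130. The 39 genes with replicates 2 and 3 high were shorter, with a median exon-union length of 2560 bases (quartiles 1314 and 3452) against 4631 bases (3042 and 6905), and richer in G and C, with a median of 55.6% against 48.7%. Genes under 1000 bases supplied 4 of 81, genes of 1000 to 2000 bases 11 of 541, and genes of 8000 bases or more none of 1032. Ratios moved with length over all 6130 genes as well: the median log2 ratio of replicate 3 over replicate 1 was 0.31 under 1000 bases and -0.27 at 8000 or more, and that of replicate 2 over replicate 1 was 0.17 and -0.01. Between the controls, replicate 2 over replicate 1 had medians of 0.41 and -0.21 at the same lengths. With the length trend removed from each library, 37 of the 39 met the rule, and 6 genes in place of 2 had replicate 1 high. Single-exon genes were 4 of the 39 (SFN, LCE1F, HIST1H2AE and TCIM; 10.3%) against 2.27% of the 6130.

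**Figure D4:**
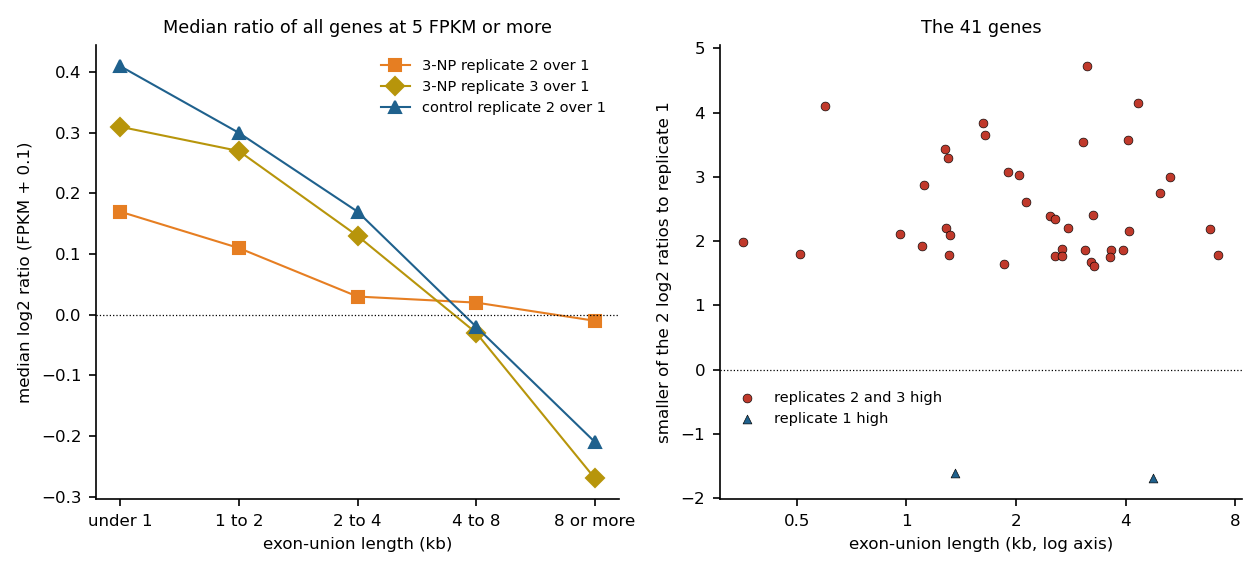
Left, median log2 ratio (FPKM + 0.1) of 3-NP replicates 2 and 3 over replicate 1 and of control replicate 2 over 1, for 6130 genes in 5 bins of exon-union length. Right, the smaller of the 2 log2 ratios to 3-NP replicate 1 for the 41 genes against their length (log axis). The bin medians run from 0.41 to -0.27, and the 39 genes stand at a ratio of at least 3.05 at lengths of 357 to 7182 bases.

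Ribosomal protein genes leaned slightly toward replicates 2 and 3. Of 76 with a mean of at least 1 FPKM, 75 had replicates 2 and 3 both above replicate 1, with medians of 0.38 and 0.61, and none was among the 41. Genes of giant structural proteins leaned the other way, 18 of 24 with both below. Of 10203 protein-coding genes with such a mean, 38.4% had both above and 33.5% both below. The part of gene length in either lean was not tested. Chromosomes 9 and 20 supplied 6 of 273 and 4 of 177 eligible genes, 2.20% and 2.26%, the highest shares. On chromosome 9 these were ASS1, CDKN2A, CDKN2B, CYSRT1, PTGES and TPM2, and PTGES and ASS1 are 692 kb apart with 8 protein-coding genes between them, so apart from CDKN2A with CDKN2B and IL1A with IL1B no 2 of the 41 were next to each other.

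The smallest 3-NP read number was under 30 in 5 of the 39 (SLPI, CYSRT1, SFN, LCE1F and HIST1H2AE) and at least 48 in the 2 with replicate 1 high. The exact binomial 95% interval of the smaller read ratio had its lower bound above 1 in all 41 and at 3 or more in 30 of the 39 and none of the 2. Where reads carry no molecular identifiers they are not independent molecules, so these intervals cover counting error only and say nothing of the spread between cultures.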

How the data were processed

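RNA from COV434 cells was sequenced in 3 3-NP and 2 control libraries, grouped by sample title; the cell line field counts upward from COV434 over the samples, while each title says COV434, so COV434 was used throughout. Per the submitters' processing notes, bcl2fastq 2.17, Trimmomatic 0.39 and HISAT2 2.1 were used, with GRCh38; the counter and its settings are not given there. The FPKM values, 1 per Ensembl gene and library, were deposited by the authors. The files name no unit; it was read from the values, because value times GENCODE 29 exon-union length gave whole reads, within 0.05 read, for 94.4% to 94.8% of values above 0 and under 100 reads. These steps gave the depths, and 3 reads on a 2 kb gene came to 0.0794 to 0.0841 FPKM. Of the 30631 genes, 30390 were found in GENCODE 29.

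Genes were selected on FPKM + 0.1 as described above. Groups were compared with limma 3.58.1 (R 4.3.3) fitted to log2(FPKM + 1) with a trended prior variance, over genes that reached 1 FPKM in 2 or more libraries, with Benjamini-Hochberg adjustment at 0.05 and 3 residual degrees of freedom. This scale shrinks the fold changes of genes at low level. Both steps were tested on simulated data. The genes, lists and tests were chosen with earlier results of these data known, the families of relatives after the 41 genes were seen. Named genes were the 12 with the largest ratio, the 6 highest, those in a list, those at the threshold and up to 5 with the smallest limma p in each direction; the remaining genes were named to complete the set. Alternatives were other pseudocounts, folds, minimums and scalings, all biotypes, the replicate block and each library left out.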

Additional observations from a re-analysis of the deposited data

How the results depend on the processing

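The number of genes with replicates 2 and 3 high was 39, against 81 at a fold of 2, 24 at a fold of 4 and 129 at a minimum of 1 FPKM; without 3-NP replicate 2 or 3 it ranged from 42 to 51, and it was 30 with a pseudocount of 1. The number with replicate 1 high was 2, against 0 with a pseudocount of 1, at a fold of 4 or at a minimum of 10 FPKM, 24 at a fold of 2, 6 with the length trend removed, 5 over all biotypes and 3 to 9 without 3-NP replicate 2 or 3. Without the low-value filter 2 of the 41 were called higher and 1 lower in 3-NP cells; with each library left out in turn these counts ranged from 2 to 28 and from 1 to 6. The replicate block gave 11 higher and 8 lower, though the labels do not say that a number marks a shared culture. In that fit 3-NP replicate 3 had no control of its number, so the calls rested on the libraries numbered 1 and 2. Deviations from the group means correlated at 0.16 between the libraries numbered 1 and at -0.35 between those numbered 2, over 11858 genes. The deviations of the 2 controls mirror each other, so these correlations are not separate checks. Of the 39, 38 met the rule with median-of-ratios scaling and 38 with equal quantiles, PDIA4 (smaller log2 ratio 1.57) and TCIM (1.55) falling just under it; of the 2 with replicate 1 high, CHCHD10 (-1.57) did so with equal quantiles. Near 0.0794 to 0.0841 FPKM on a 2 kb gene, differences were not detectable at this depth.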

Other observations

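The same rule applied to genes that are not protein-coding, at 5 FPKM or more in a 3-NP library, picked 9 with replicates 2 and 3 high and 3 with replicate 1 high among 293. H19, the imprinted growth-restraining RNA, which lies on chromosome 11 as CDKN1C does, had 0.956, 30.1 and 39.5 FPKM in 3-NP replicates 1, 2 and 3 and 12.6 and 15.3 FPKM in the controls, from 52, 1626 and 2155 reads against 686 and 792. Its smaller ratio, 28.6, was above that of KRT17. The long noncoding RNA IGFL2-AS1 had 0.181, 4.38 and 5.55 FPKM in 3-NP cells and 1.46 and 1.92 FPKM in control cells. In H19 and IGFL2-AS1 alike the controls lay between the low and the high 3-NP libraries. AL035446.1 had 0.585, 4.97 and 5.98 FPKM against 1.65 and 2.1 FPKM. Of the 12 genes 7 were under 100 bases, where a few reads make several FPKM, and MIR616, listed at 0, 3.32 and 8.21 FPKM in 3-NP cells and 0.550 and 2.89 FPKM in control cells, lies inside DDIT3.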
